A study of Homo sapiens with 6 samples.

Results

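The 9 genes described here, PHGDH, PSAT1, PSPH, SHMT1, SHMT2, MTHFD1, MTHFD2, MTHFD1L and ALDH1L2, encode the enzymes that lead from the glycolytic intermediate 3-phosphoglycerate to serine and from serine to folate-bound single-carbon units. They were taken by gene symbol from the 16305 genes measured, and all 9 were found. They were chosen with their difference between fostamatinib-treated and DMSO-treated cells already known, so that difference is given as a description, with no p-value, and the calls of the fit across all genes on them are given as counts that support nothing. RNA was sequenced from 6 samples of Huh7SR cells, a sorafenib-resistant line derived from the human hepatocellular carcinoma cell line Huh7 under long-term sorafenib, which was withdrawn some days before experiments. In 3 samples the cells were exposed to Fostamatinib, an inhibitor of spleen tyrosine kinase (SYK), at 2 µM for 24 h. Cells of the other 3 were exposed to DMSO, the solvent, for the same 24 h and labelled with the same 2 µM. The study did not detect SYK protein in Huh7 cells. In its immunoblots, at a higher dose and shorter time, the drug lowered phosphorylation of ERK, AKT, STAT3, EGFR and JNK. Which target underlies the changes below was not tested. No parental or untreated cells are in the comparison. Each value is a log2 CPM, the logarithm of a gene's reads scaled to counts per 1000000 reads of its sample, with 0.5 added to each count, which understates changes of genes with few reads.

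Cells make serine from 3-phosphoglycerate in a chain of reactions by PHGDH, PSAT1 and PSPH. Serine hydroxymethyltransferase then splits serine into glycine and a carbon unit carried by tetrahydrofolate, in the cytosol by SHMT1 and in the mitochondrion by SHMT2. In the mitochondrion MTHFD2 oxidizes that unit, MTHFD1L releases it as formate and ALDH1L2 can burn it to CO2, while in the cytosol MTHFD1 carries out the corresponding oxidation and formate steps in a single protein. Formate made in mitochondria feeds purine and thymidylate synthesis, and many tumours express the mitochondrial enzymes strongly. Several of these genes are known targets of the stress-response factor ATF4.

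Liver cell identity was checked first. All 12 liver markers tested were present, with AFP (10.90 ± 0.062 log2 CPM, SD, n = 3) and APOB (9.76 ± 0.070) among the highest in the DMSO samples, and all 12 were higher after fostamatinib in limma's test. Their summed level was 5185 to 5515 CPM in the DMSO samples and 7026 to 7428 CPM after fostamatinib. The lowest of the 12 with DMSO, APOA1, had only 20, 22 and 23 reads there, against 189, 185 and 194 with fostamatinib. The leukocyte markers PTPRC and CD3E, the endothelial markers VWF, CDH5, KDR and TEK, and the stromal markers DCN and PDGFRA were not analysed here, and the other listed markers of those cells summed to at most 19.1, 9.93 and 161 CPM in any sample, most of the last from LUM. Of 10 proliferation genes, 7 were lower and 2 higher, where 24.5% and 23.3% of all genes were. Their log2 fold changes ran from -1.55 for MCM5 to 0.38 for CCNB1, with MKI67 at 0.039 and not called. Transcripts encoded by the mitochondrial genome took 6.15% to 6.67% of reads in the DMSO samples and 8.16% to 8.40% after fostamatinib. The part of these shifts in the results below was not tested. In cultured cells sequenced in bulk, fewer cells of a state and less RNA per cell cannot be told apart.

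Most of the 9 genes fell together, but they were chosen with this contrast known, and shared control was not tested. Their promoters were read from RefSeq (GRCh38.p14, 250 bases before and 50 after each start site), in which 6 of the 9 genes were found. The stretches below are the 200 bases before the start site of the 3 genes with the largest falls among these 6, and of SHMT1, which moved least. Capitals mark CCAAT boxes, the motif of the general factor NF-Y, in either orientation (CCAAT or ATTGG).

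PSAT1 (chr9:78296925-78297124, + strand): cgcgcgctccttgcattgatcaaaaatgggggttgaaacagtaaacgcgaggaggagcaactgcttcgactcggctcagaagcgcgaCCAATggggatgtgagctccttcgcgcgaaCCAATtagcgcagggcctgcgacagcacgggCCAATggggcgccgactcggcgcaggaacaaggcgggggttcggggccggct
MTHFD2 (chr2:74198415-74198614, + strand): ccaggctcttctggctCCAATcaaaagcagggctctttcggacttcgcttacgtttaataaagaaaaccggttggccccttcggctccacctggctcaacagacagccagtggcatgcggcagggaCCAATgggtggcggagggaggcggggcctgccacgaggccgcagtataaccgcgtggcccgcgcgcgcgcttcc
PHGDH (chr1:119711734-119711933, + strand): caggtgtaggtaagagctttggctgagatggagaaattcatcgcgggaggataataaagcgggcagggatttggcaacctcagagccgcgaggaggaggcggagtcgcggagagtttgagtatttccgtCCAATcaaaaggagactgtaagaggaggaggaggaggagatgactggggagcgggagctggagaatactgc
SHMT1 (chr17:18363551-18363750, - strand): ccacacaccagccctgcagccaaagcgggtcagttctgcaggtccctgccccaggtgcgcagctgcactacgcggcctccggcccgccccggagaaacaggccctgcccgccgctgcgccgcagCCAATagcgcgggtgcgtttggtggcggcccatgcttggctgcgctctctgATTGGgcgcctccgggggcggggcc

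PSAT1 held 3 CCAAT boxes, starting 113, 83 and 52 bases before the start site. MTHFD2 held 2, at 184 and 74 bases, PHGDH had 1 at 71 bases, and SHMT1 had 2, at 76 and 25 bases. A CCAAT box lay in the window of each of the 6 genes, against 39.7% of the 27305 genes with a listed promoter and 34.6% of all 35116 promoters. Those 27305 genes were not limited to the genes measured here, so the shares are not a matched background. This motif was picked after the sequences had been read. SHMT1, which moved least, also holds it, and a part of the motif in the changes was not tested.

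The element bound by ATF4 with C/EBP factors was searched on both strands as TGATGNAA. It matched in MTHFD1L alone of the 6 genes and in 4.46% of the genes with a listed promoter (3.62% of promoters). MTHFD1L has 4 listed start sites, and not all of their windows hold the match. The match lies 129 bases before the start site of the entry shown. It also lies 90 bases before that of another entry and 25 bases into the transcript of a further entry. The 30 bases around it, with the match in capitals, are these.

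MTHFD1L (chr6:150866347-150866376, + strand): ccgccggctcTGATGCAAtcgcgccgggcg

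The E-box CACGTG, which MYC binds, matched in MTHFD1 and MTHFD1L and in 8.77% of the genes with a listed promoter (7.26% of promoters). The antioxidant response element TGACNNNGC matched in MTHFD2 and in 16.1% of those genes (13.3% of promoters). No matches to these 4 motifs overlapped in the 6 genes. A match is a run of letters and was not tested for binding, and the absence of one says only that those letters are not in this window.

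In the fostamatinib samples all 9 genes had a lower mean than in the DMSO samples, with log2 fold changes from -2.69 for PSAT1 to -0.13 for SHMT1 and a median of -1.32, against 0.0015 over all 16305 genes. The fit across all genes (limma, adjusted p under 0.05) called 8 of the 9 lower, SHMT1 being the exception, where it called 24.5% of all genes lower. In 6 of the 9 the mean fell by more than 2-fold, against 3.29% of all genes called and past that size. The samples of the groups did not overlap for any of the 9, against 54.1% of all genes, and 27.4% that were lower without overlap. Nothing is read from these counts, since the members were picked on this contrast. Reads on the 9 genes together made up 0.128% to 0.133% of a DMSO sample and 0.0467% to 0.0494% of a fostamatinib sample. The plot of log2 CPM by sample shows these values.

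**Figure D1:**
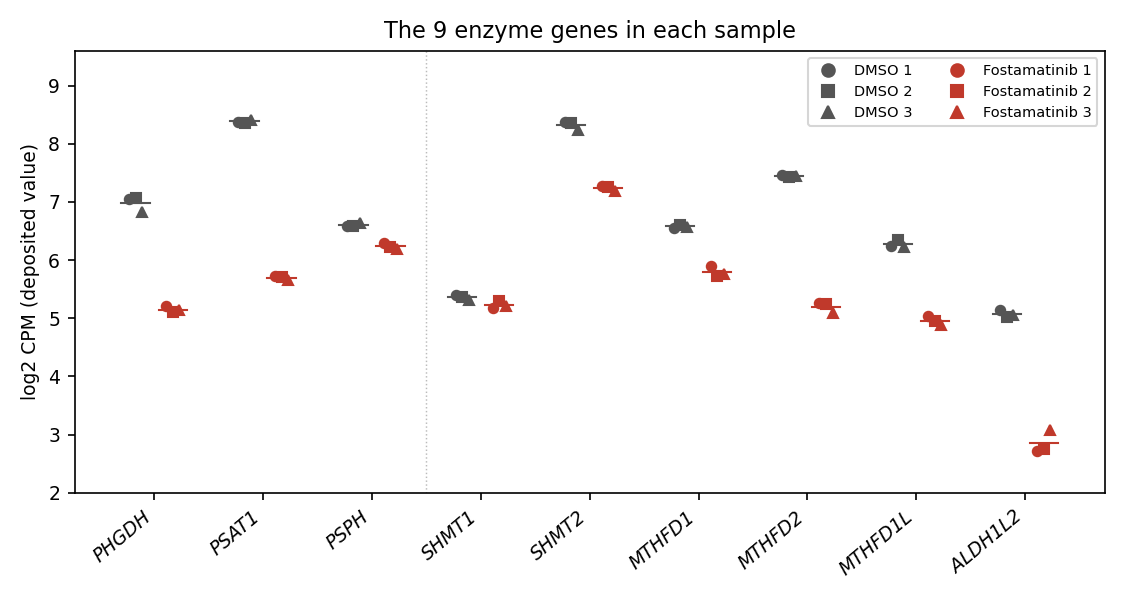
Deposited log2 CPM (vertical axis) of the 9 enzyme genes in each of the 6 samples, grey for DMSO and red for fostamatinib, with a marker shape for each replicate and a line at each group mean. The dotted line parts the serine synthesis enzymes from the enzymes of carbon transfer. PSAT1 lay at 8.36 to 8.41 in DMSO and at 5.66 to 5.73 in fostamatinib, while the groups of SHMT1 were 0.0073 apart.

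Among the serine synthesis enzymes, PSAT1 and PHGDH fell far more than PSPH. PSAT1, the aminotransferase of the middle step (ENSG00000135069, GRCh37 chromosome 9, 80912041 to 80945009, + strand), had 8.38, 8.36 and 8.41 log2 CPM with DMSO and 5.73, 5.71 and 5.66 with fostamatinib. The groups were 2.63 log2 units apart and the log2 fold change was -2.69 (standard error 0.044), which left 15.6% of the DMSO level and was the 39th largest fall of all genes. In reads, PSAT1 went from 4587, 5028 and 5059 to 731, 745 and 668.

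PHGDH, the dehydrogenase that opens the pathway (ENSG00000092621, chromosome 1, 120191034 to 120286841, + strand), had 7.04, 7.07 and 6.83 log2 CPM with DMSO and 5.20, 5.10 and 5.14 with fostamatinib. DMSO replicate 3 was the lowest of its group, yet it lay 1.63 above the highest fostamatinib sample. The log2 fold change was -1.83 (standard error 0.058), leaving 28.1% of the DMSO level.

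PSPH, the phosphatase that releases free serine (ENSG00000146733, chromosome 7, 56078744 to 56119297, - strand), had 6.59, 6.58 and 6.63 log2 CPM with DMSO and 6.30, 6.22 and 6.19 with fostamatinib. The groups did not overlap, but the log2 fold change was only -0.37 (standard error 0.049), and 77.5% of the DMSO level remained. Within a sample, the log2 ratio of PSAT1 to PSPH was 1.78 ± 0.0042 (SD, n = 3) in DMSO and -0.54 ± 0.026 (SD, n = 3) after fostamatinib. PSPH has a transcribed copy, PSPHP1, and 6.17% of the 50-base windows of PSPH transcripts occur in transcripts of other genes, PSPHP1 first among them.

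The 4 mitochondrial enzymes fell by 1.09 to 2.25 on the log2 scale, and all 4 by more than 2-fold. MTHFD2, the dehydrogenase and cyclohydrolase (ENSG00000065911, chromosome 2, 74413299 to 74444692, + strand), had 7.46, 7.44 and 7.44 log2 CPM with DMSO and 5.26, 5.24 and 5.09 with fostamatinib. Its DMSO values were the tightest of the 9 genes (SD 0.013, n = 3), and its log2 fold change was -2.25 (standard error 0.052), to 21.0% of the DMSO level.

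ALDH1L2, which oxidizes formyl-tetrahydrofolate to CO2 (ENSG00000136010, chromosome 12, 105413562 to 105501421, - strand), had the fewest reads, 489, 498 and 492 with DMSO against 90, 95 and 112 with fostamatinib. Its log2 CPM went from 5.15, 5.03 and 5.05 to 2.72, 2.74 and 3.09, with replicate 3 the highest of the treated samples. The log2 fold change of -2.23 had the largest standard error of the 9 genes, 0.098, and it differed from that of MTHFD2 by less than either standard error.

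MTHFD1L, the formate-releasing synthetase (ENSG00000120254, chromosome 6, 151186815 to 151423023, + strand), had 6.25, 6.35 and 6.22 log2 CPM with DMSO and 5.03, 4.95 and 4.88 with fostamatinib, a log2 fold change of -1.32 (standard error 0.060). It is the gene with the TGATGCAA match printed above, and whether that element has a part in the fall was not tested. SHMT2, the mitochondrial hydroxymethyltransferase (ENSG00000182199, chromosome 12, 57623356 to 57628718, + strand), had 8.38, 8.36 and 8.25 log2 CPM with DMSO and 7.28, 7.25 and 7.20 with fostamatinib. Its log2 fold change was -1.09 (standard error 0.042), leaving 47.1% of the DMSO level.

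Their cytosolic counterparts moved less. MTHFD1, the trifunctional cytosolic enzyme (ENSG00000100714, chromosome 14, 64854749 to 64930175, + strand), had 6.56, 6.60 and 6.57 log2 CPM with DMSO and 5.90, 5.72 and 5.76 with fostamatinib, a log2 fold change of -0.78 (standard error 0.053). SHMT1 (ENSG00000176974, chromosome 17, 18231174 to 18266877, - strand) had 5.40, 5.36 and 5.31 log2 CPM with DMSO and 5.17, 5.30 and 5.22 with fostamatinib. The nearest samples of the groups were 0.0073 apart, and the log2 fold change of -0.13 (standard error 0.063) is not called a fall.

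Ratios within a sample do not depend on how the libraries were scaled, and they show the same unevenness. The log2 ratio of SHMT2 to SHMT1 was 2.97 ± 0.034 (SD, n = 3) with DMSO and 2.01 ± 0.085 (SD, n = 3) with fostamatinib, a difference of -0.96 (standard error 0.053). That of MTHFD2 to MTHFD1 was 0.90, 0.83 and 0.87 with DMSO against -0.64, -0.48 and -0.67 with fostamatinib, a difference of -1.46 (standard error 0.062). For MTHFD1L to MTHFD1 the difference was smaller, -0.53 (standard error 0.044). No ratio overlapped between the groups, and all are built from the contrast that chose the genes. The ratio of PSAT1 to PHGDH varied most among DMSO samples, from 1.30 to 1.58, since PHGDH was low in DMSO replicate 3.

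**Figure D2:**
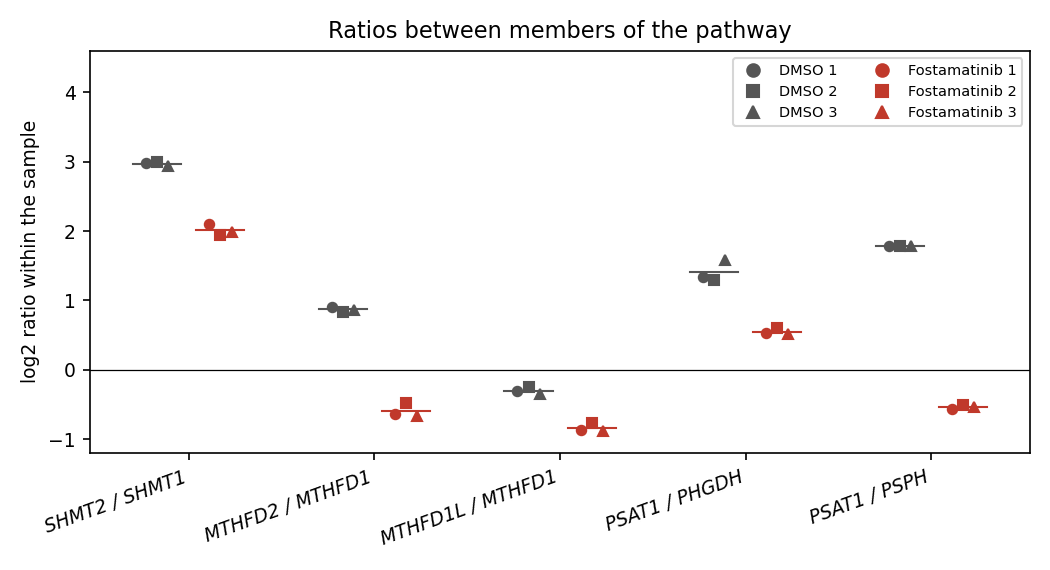
Log2 ratio of CPM values within each sample (vertical axis) for 5 pairs of the enzyme genes, grey for DMSO and red for fostamatinib, with a marker shape per replicate and a line at each group mean. Each ratio was lower in every fostamatinib sample, and those of MTHFD2 to MTHFD1 and PSAT1 to PSPH passed below 0; gene length is not corrected for, so only the change of a ratio can be read.

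The make-up of the reads on the 9 genes differed between the groups. PSAT1 held 25.1% to 26.7% of the reads on the 9 genes in the DMSO samples and 10.7% to 10.9% after fostamatinib, and MTHFD2 went from 13.2% to 13.7% down to 7.28% to 7.87%. SHMT2 held 23.8% to 25.2% of these reads with DMSO and 31.3% to 31.6% with fostamatinib, and PSPH held 7.30% to 7.79% and then 15.5% to 15.8%. These are shares of a falling total, and no gene of the 9 had a higher level after fostamatinib.

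Levels of different genes can be compared only per length. As RPKM, the CPM divided by the length of the merged exons in kilobases, PSAT1 was the highest of the 9 in the DMSO samples, at 151.5 ± 2.51 RPKM (SD, n = 3), followed by SHMT2 at 70.0 ± 3.43 and PSPH at 35.2 ± 0.641. MTHFD1L (15.8 ± 0.741) and MTHFD2 (15.3 ± 0.132) were not separated beyond the spread of their replicates. PHGDH had 13.8 ± 1.19, SHMT1 5.85 ± 0.181, MTHFD1 5.51 ± 0.0888 and ALDH1L2 3.56 ± 0.161 RPKM. After fostamatinib SHMT2 was the highest (33.0 ± 0.962), then PSPH (27.3 ± 1.04) and PSAT1 (23.6 ± 0.629), while MTHFD2 (3.21 ± 0.199) and MTHFD1 (3.20 ± 0.208) were not separated.

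The order depends on the length used, since merged exons can be far longer than the main transcript, as for MTHFD1 (17357 against 3154 bases) and PHGDH (9187 against 1866 bases). With the main (MANE Select) transcript as the length, an alternative added after the merged lengths had been seen, PSAT1 (151.5 RPKM) and SHMT2 (149 RPKM) were not separated in the DMSO samples, PHGDH came next with 67.9 ± 5.86 RPKM, and MTHFD1 with 30.3 ± 0.490 RPKM lay above MTHFD1L and SHMT1. With either length ALDH1L2 was the lowest in both groups, and SHMT2 and PSPH were the highest after fostamatinib.

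**Figure D3:**
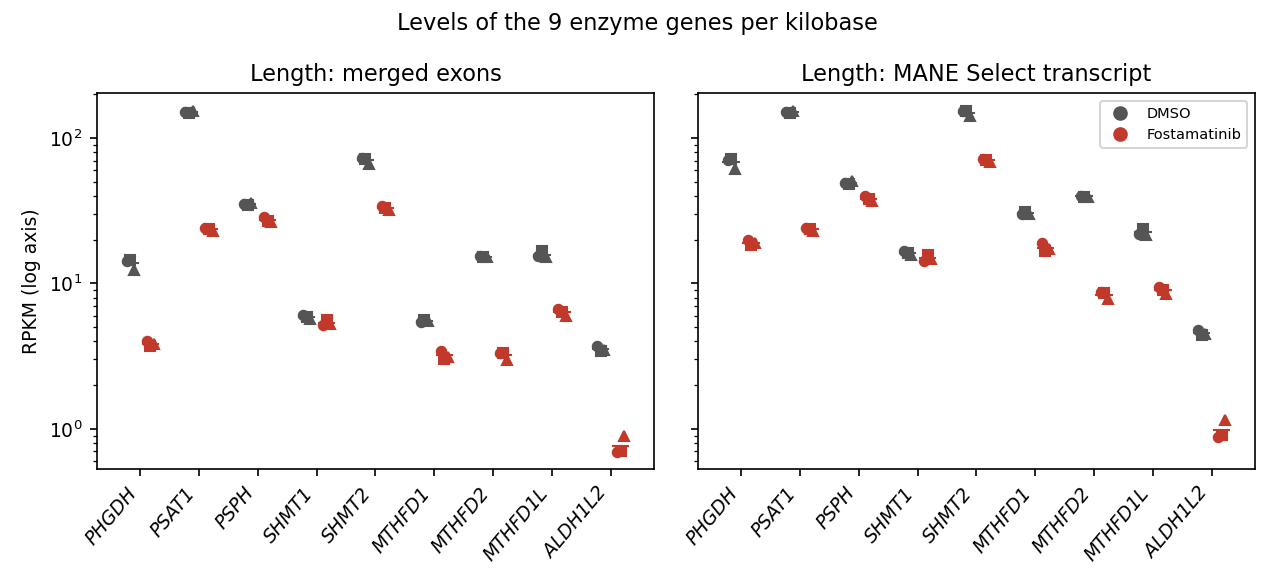
Levels in RPKM (CPM divided by transcript length in kilobases, vertical log axis) of the 9 enzyme genes in the DMSO samples (grey) and fostamatinib samples (red), with the length of merged exons at left and of the MANE Select transcript at right; lines are group means and marker shapes are replicates. PSAT1 led the DMSO samples at left with 151.5 RPKM, and ALDH1L2 reached at most 1.14 RPKM in the fostamatinib samples in both panels.

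The rule that chose the 9 enzymes did not use the genes around them, though the lists of those were drawn up with results of these data known. Lists by role gave 79 genes tested, of which 30 were lower and 14 higher after fostamatinib (limma, Benjamini-Hochberg adjusted p under 0.05), or 38% and 17.7%, where 24.5% and 23.3% of all genes were. Their median log2 fold change was -0.10. With the minimum of 5 reads in 2 of 3 samples required of both groups, 30 were lower and 13 higher. In the fit, replicate error is pooled over genes, and the small adjusted p-values below rest on that pooling.

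Of the 13 carriers of serine, glycine and their exchange partners, 5 were lower, 1 was higher and 7 were not called. SLC6A9, the glycine transporter GLYT1, had 339, 324 and 290 reads with DMSO against 48, 61 and 38 with fostamatinib and fell by 2.62 on the log2 scale (standard error 0.13, limma adjusted p = 3.1e-18). SLC1A4, a serine and alanine exchanger, changed by -1.87 (standard error 0.082, adjusted p = 5.85e-20, limma). SLC1A5, the glutamine and serine exchanger, changed by -1.29 (standard error 0.0405, adjusted p = 3.55e-24, limma). SLC38A2, a sodium-coupled neutral amino acid transporter, fell by 0.85 on the log2 scale. The mitochondrial serine carrier SFXN1 was not called, with 6.67 ± 0.033 log2 CPM with DMSO and 6.66 ± 0.039 with fostamatinib (SD, n = 3; limma adjusted p = 0.835). Its relative SFXN3 rose by 0.26 (standard error 0.058).

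Of the enzymes that break down serine and glycine, 9 of the 15 listed were tested, with 2 lower and 4 higher. The glycine cleavage system, which yields a further carbon unit in mitochondria, was uneven. GCSH, its lipoyl carrier protein, had 242, 238 and 240 reads with DMSO against 100, 97 and 95 with fostamatinib and fell by 1.21 on the log2 scale (limma adjusted p = 7.93e-12, standard error 0.11). GLDC, the decarboxylase of the same system, rose by 0.30 (standard error 0.068, adjusted p = 3.77e-04, limma), and DLD, its dehydrogenase that other complexes share, fell by 0.13 (standard error 0.046). The call of DLD was lost without DMSO replicate 3 (-0.10, adjusted p = 0.0614, limma). AMT was not analysed here. SDSL, a serine dehydratase-like enzyme, rose by 0.69, DMGDH, which makes sarcosine, by 0.42, and SRR, serine racemase, by 0.39. The call of SRR was lost without DMSO replicate 2, Fostamatinib replicate 1 or Fostamatinib replicate 2, with log2 fold changes of 0.32, 0.38 and 0.35.

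Of 16 other folate genes, 6 were lower and 2 higher. MTHFD2L, the mitochondrial paralogue of MTHFD2, went from 80, 82 and 92 reads to 35, 45 and 44 and fell by 0.94 on the log2 scale (limma adjusted p = 1.67e-05, standard error 0.17). SLC25A32, the mitochondrial folate carrier, changed by -0.85 (standard error 0.084, adjusted p = 1.2e-10, limma), and SLC19A1, the folate carrier of the plasma membrane, by -0.79. TYMS, the thymidylate synthase that consumes a folate-bound carbon unit, fell by 0.70 on the log2 scale. GGH, a folate hydrolase, rose by 0.18, and its call was lost without DMSO replicate 1 or 2 or Fostamatinib replicate 2, with log2 fold changes of 0.14, 0.16 and 0.15. ALDH1L1, the cytosolic paralogue of ALDH1L2, was not analysed here.

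In the methionine cycle and transsulfuration, 4 of 11 genes tested were lower and 2 higher. Those with the largest falls were CTH, the cystathionine lyase, with 291, 349 and 317 reads against 88, 91 and 99 (log2 fold change -1.69, standard error 0.10, adjusted p = 5.43e-16, limma), and CBS, which joins serine to homocysteine (-0.99, standard error 0.058, adjusted p = 1.64e-16, limma). MTRR, which reactivates methionine synthase, fell by 0.55, whereas AHCYL2 rose by 0.50 and MAT2B, the regulatory subunit of S-adenosylmethionine synthetase, by 0.26.

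The list of serine-using lipid enzymes also held small subunits and the SERINC genes, which do not encode enzymes. It gave 1 lower and 3 higher of 11, or 7 called without DMSO replicate 3. PTDSS1, a phosphatidylserine synthase, fell by 0.61 on the log2 scale. SPTLC3, a subunit of serine palmitoyltransferase, rose from 25, 43 and 31 reads to 125, 129 and 131, or by 2.07 on the log2 scale (limma adjusted p = 1.47e-12, standard error 0.17). SPTSSB, a small subunit of the same enzyme, rose by 1.23 and SERINC5 by 0.54.

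Among glycolytic genes on either side of 3-phosphoglycerate, 5 of 9 were lower and 1 higher. PGK1, which makes 3-phosphoglycerate, fell by 0.55 on the log2 scale. The enolases ENO2 and ENO1, which act downstream of it, fell by 0.88 and 0.56. PKLR, also downstream, the liver pyruvate kinase, rose by 2.14 (standard error 0.56), but on 2, 1 and 4 reads with DMSO against 10, 13 and 8. It passed the authors' minimum of 5 reads only through the fostamatinib samples, where it was higher, so nothing is read from its call. PKLR is the 1 higher gene of this list.

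Among 10 factors known to act on serine pathway genes, 7 were lower and 1 was higher. ATF4 itself had 7207, 7949 and 7341 reads with DMSO against 4469, 4588 and 4098 with fostamatinib and fell by 0.69 on the log2 scale (limma adjusted p = 1.61e-17, standard error 0.037). ATF3, an ATF4 target, changed by -1.28, CEBPB by -0.83 and CEBPG, a dimer partner of ATF4, by -0.75. MYC had 1277, 1392 and 1252 reads against 789, 789 and 792 and fell by 0.64 on the log2 scale (limma adjusted p = 2.62e-12, standard error 0.053). NFE2L2, which encodes NRF2, was at 8.38 ± 0.017 and 8.44 ± 0.030 log2 CPM (SD, n = 3) and was not called, and EHMT2, the histone methyltransferase G9a, rose by 0.22. Activity of these factors was not measured.

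**Figure D4:**
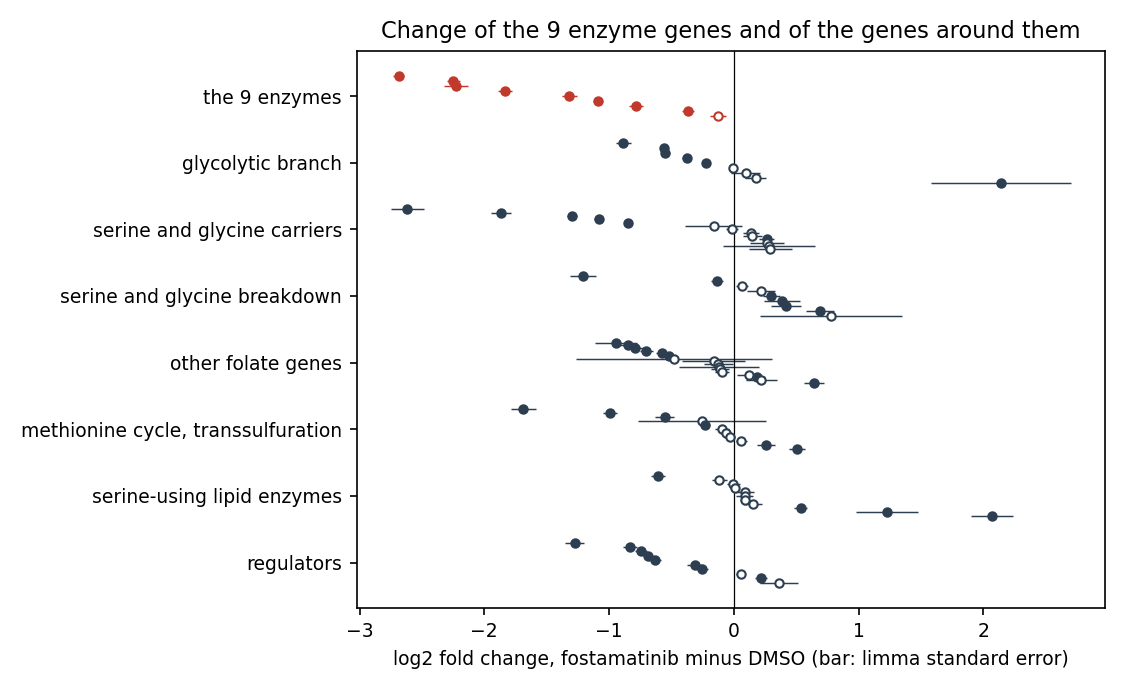
Log2 fold change, fostamatinib minus DMSO (horizontal axis), of the 9 enzyme genes (red) and of the 79 genes in 7 lists around them (dark), each point a gene with its limma standard error as a bar; filled points had an adjusted p under 0.05 and open points did not. The 9 enzymes spread from -2.69 to -0.13, and every list holds points on both sides of 0.

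The genes whose pattern lay nearest to that of PSAT1, the member with the largest change, were sought among 11710 genes averaging 50 reads or more in either group, by the root mean square difference over the 6 samples of log2 CPM less the DMSO mean. They were the chemokine CXCL8 (difference 0.0844), the AP-1 subunit FOSL1 (0.110), the receptor FLT1 (0.155), SLC6A9 (0.190) and the ETS factor ETV1 (0.193). Over samples of only 2 conditions this likeness mostly reflects the size of the fall, which was -2.62 for CXCL8 and -2.91 for ETV1.

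Some members share sequence with other genes. The share of 50-base transcript windows found in another gene's transcripts was 0.119% for PHGDH, 0.179% for MTHFD1L and 2.23% for ALDH1L2, and it was highest for MTHFD1 (12.3%) and MTHFD2 (14.8%), which share sequence with neighbouring or pseudogene transcripts. How the counting treated such reads is not given in the sources used here.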

How the data were processed

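Per the labels and the study's methods, poly(A) RNA was sequenced from directional libraries, and the authors aligned to hg19 (HISAT), counted with featureCounts against GENCODE 22, left out genes that stayed under 5 reads in 2 or more of the 3 samples in each group, and scaled by TMM. The deposited values are log2 CPM, with 0.5 added to each count; each file holds 1 sample. Repeated rows (6) were dropped, leaving 16305 genes. Reads were recovered from the values, 100% lying within 0.05 of a whole number, and numbered 13303451 to 15272737 per sample on the genes kept; this depth and 3 samples per group set the precision. Treatments were in triplicate, but whether as separate cultures is not given in the sources used here, so p-values may measure technical spread only. Replicates differed by 1.65 to 3.74 times counting variance (chi-square per degree of freedom).

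Fold changes and adjusted p-values come from limma 3.58.1 in R 4.3.3 (lmFit, eBayes with trend, treatment as the only term, Benjamini-Hochberg over all genes), tested on simulated data. RPKM, coordinates and transcript windows used GENCODE 44 mapped to GRCh37, the same build as hg19. Tables and plots used Python 3.11.15. Same-numbered samples were checked for shared deviations (given with the alternatives). The members, lists and motifs were chosen with earlier results of these data known. Named are the 9 members, fixed neighbours, up to 3 largest called rises and falls per list, and the 5 genes nearest to the member that changed most. Some genes of the lists are counted but not reported here by name.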

Additional observations from a re-analysis of the deposited data

How the results depend on the processing

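As a description only, since the 9 enzymes were chosen on this contrast, all 9 had the same sign and 8 were called in each of 13 alternative fits (limma-voom on recovered reads, no trend, RLE factors, library size alone, stricter filters, the replicate block and each sample left out), and SHMT1 was called in 0 of them. With each sample left out in turn the median log2 fold change of the 9 was -1.36 to -1.28, the genes called numbered 6958 to 7480, and 42 to 48 of the 79 pathway genes were called. Without a trend 6382 genes were called, and DLD, GGH and MAT2B lost theirs (adjusted p = 0.0814, 0.0997 and 0.0823, limma). SFXN1, which was not called, ranged from -0.0319 to 0.0072 with a sample left out, turning to 0.0039 without DMSO replicate 1 and to 0.0072 without Fostamatinib replicate 1. The median DMSO level of the 9 genes, 15.3 RPKM per merged exons, was 26.8 with the longest transcript and 39.6 with the MANE Select transcript, which are shorter. Same-numbered samples did not deviate together (r = 0.036, -0.021 and 0.037 over 12249 genes). With the replicate block 7977 genes were called, 46 of them in the pathway lists, and the median of the 9 was -1.32. No run without a filter was made, since the files are already filtered. Precision is limited by 3 samples per group and, for genes with few reads, by counting.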
